A study of Mus musculus with 12 samples.

Results

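The genes of oxidative phosphorylation were followed in 12 libraries of 4T1 cells. They were chosen by symbol: the protein-coding genes whose symbols start with Nduf, Uqcr, Cox4, Cox5, Cox6, Cox7, Cox8, Atp5 or mt-, and the 4 genes Sdha, Sdhb, Sdhc and Sdhd. This gave 107 genes of the 35521 genes with a listed transcript, of which 94 lie in the nuclear genome and 13 in the mitochondrial genome. A filter on low counts kept 12555 genes, among them 98 of the 107, made up of 85 nuclear genes and all 13 mitochondrial genes.

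4T1 is an established mouse mammary carcinoma cell line that carries an epithelial identity and spreads in BALB/c mice. Parental 4T1 cells were set beside cells that had shared medium for 48 h with Gr1+ myeloid cells across a membrane with 0.4 µm pores, with 4 libraries in each group. The Gr1+ cells were taken, on day 21 after injection per the labels, from 4T1 tumors (Tu-Gr1+CD11b+–primed 4T1, hereafter Tu-primed) or from spleens of 4T1 tumor–bearing BALB/c mice (Spl-Gr1+CD11b+–primed 4T1, hereafter Spl-primed). All 3 groups are the same line, the tumor cells were lysed in the well, and neither the pooling of donor mice nor whether the 4 libraries of a group came from separate cultures is given, so that the p-values measure the spread between these libraries, which may be technical. The comparison of each primed group with parental 4T1 asks how the RNA of tumor cells differs after they have shared medium with Gr1+CD11b+ cells, and that of Tu-primed with Spl-primed asks whether the source of the myeloid cells matters. Culture time and use of an insert are not given for the parental libraries. Differences in culture or handling therefore cannot be told apart from priming in the comparisons with parental cells.

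Oxidative phosphorylation takes place in the inner mitochondrial membrane. Complex I (NADH dehydrogenase) and complex II (succinate dehydrogenase) pass electrons to ubiquinone, complex III hands them to cytochrome c, complex IV (cytochrome c oxidase) hands them to oxygen, and complex V (ATP synthase) uses the proton gradient so built up to make ATP. Complexes I, III, IV and V are mosaics of subunits encoded in the nucleus and in the mitochondrial genome, whereas all subunits of complex II are encoded in the nucleus.

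The libraries held between 24566183 and 31637755 reads, with medians of 27431828 in parental, 27090291 in Spl-primed and 27277534 in Tu-primed cells. Protein-coding mitochondrial genes took between 2.09% and 2.53% of all reads in Tu-primed, between 2.52% and 3.16% in Spl-primed and between 4.24% and 6.73% in parental libraries. The fourth parental library stood apart with 6.73%, against at most 4.81% in the other parental libraries, and results are given without it where it moves them. The epithelial markers Epcam, Krt8, Krt18, Krt19, Krt14 and Cdh1 were detected and summed to between 2297 and 3440.0 CPM (per-million counts on the TMM-scaled library size) in parental, 2035 and 2178 in Spl-primed and 1629 and 1985 in Tu-primed libraries. Krt8, Krt18 and Cdh1 were called lower in Tu-primed cells, where Krt19 (0.0036), Krt14 (−0.19) and Epcam (0.11 on the log2 scale) were not called. In Spl-primed cells Krt8 and Krt18 were called lower and Epcam higher (0.30, adjusted p = 0.00573). Of 8 granulocyte and leukocyte markers, Ptprc, Itgam, Csf3r, Cxcr2, Ly6g, Tyrobp, Laptm5 and Coro1a, only Cxcr2 passed the filter, their summed level was 2.36 to 2.96 CPM in parental, 2.25 to 3.59 in Spl-primed and 2.08 to 4.12 in Tu-primed libraries, and 2, 2 and 1 of them were at 0 in all 4 libraries of the respective group.

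Most genes of oxidative phosphorylation were lower in both primed groups than in parental 4T1. In Tu-primed cells 72 of the 85 nuclear genes tested fell (84.7%) and 0 rose, where 28% of all 12555 genes fell and 31.2% rose, and 11 of the 13 mitochondrial genes fell (84.6%) and 0 rose (edgeR quasi-likelihood test, Benjamini-Hochberg adjusted over all genes tested). In Spl-primed cells 71 of 85 nuclear genes fell (83.5%) and 0 rose, against 22.5% and 25.7% of all genes, and 11 of 13 mitochondrial genes fell while 1, mt-Nd6, rose. The median log2 fold change against parental cells was −0.50 over the nuclear and −1.34 over the mitochondrial genes in Tu-primed cells, and −0.35 and −1.07 in Spl-primed cells, beside 0.02 over all genes tested in each comparison. At those medians the nuclear genes lay 29.4% and 21.8% below parental cells and the mitochondrial genes 60.4% and 52.4% below them. In bulk samples, fewer cells of a type and less RNA per cell cannot be told apart. Both comparisons use the same 4 parental libraries, so their values are given side by side and are not independent of each other.

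The direction of the mitochondrial median held on the 3 scales tried, while that of the nuclear genes depended on the scale. The values above are on counts scaled by TMM, which sets the bulk of the genes equal between libraries, and the TMM factors lay between 0.880 and 0.951 in parental and between 1.01 and 1.05 in primed libraries. With library totals alone the nuclear median was −0.31 in Tu-primed and −0.18 in Spl-primed cells and the median of all genes was 0.21 and 0.19, and 60 and 37 nuclear genes were called lower and 4 and 4 higher. On the deposited TPM, a level per length of transcript that sums to the same total in each library, the nuclear median was −0.01 in Tu-primed and 0.05 in Spl-primed cells and the median of all genes was 0.44 and 0.37, with 13 and 3 nuclear genes called lower and 17 and 17 higher (limma). The nuclear median minus the median of all genes was −0.52, −0.52 and −0.45 in Tu-primed and −0.37, −0.37 and −0.31 in Spl-primed cells on the TMM, library total and TPM scales. The mitochondrial medians were −1.34, −1.14 and −0.83 in Tu-primed and −1.07, −0.89 and −0.64 in Spl-primed cells on these scales, with 11 genes called lower on each scale in each comparison. For library totals and TPM the share of all genes called is not given here. The counts called lower or higher on those scales therefore cannot be set against it. The TPM total includes mt-Atp8, whose effective length is very short. Mitochondrial complex V alone held 136690 ± 21896 TPM (SD, n = 4) in parental, 65338 ± 8305 in Spl-primed and 59251 ± 7560 in Tu-primed cells. With mitochondrial genes left out of the total, nuclear TPM sums were 22023 to 22612 in parental and 19264 to 20946 in Tu-primed libraries. In Spl-primed libraries they were 20229 to 23022, overlapping the parental range. The part of mt-Atp8 in the TPM result was not tested. What follows on nuclear genes is on the TMM scale, relative to the bulk of the genes, and their direction does not hold as such on the TPM scale.

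**Figure D1:**
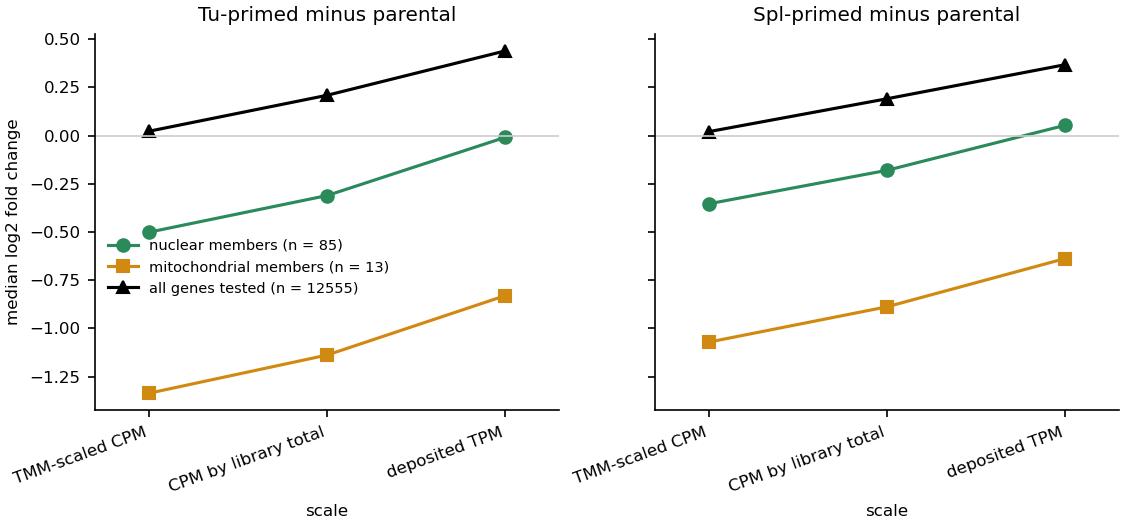
Median log2 fold change against parental 4T1 (vertical axis) of nuclear genes, mitochondrial genes and all genes tested on 3 scales (horizontal axis), with Tu-primed and Spl-primed cells in separate panels and lines joining the scales. The nuclear median moves from −0.50 to −0.01 in Tu-primed and from −0.35 to 0.05 in Spl-primed cells between the TMM and TPM scales, as the median of all genes moves from 0.02 to 0.44 and 0.37, while the mitochondrial median is at −0.64 or lower throughout.

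Other properties moved with the groups too, as did the summed level of the epithelial markers, and their part in these differences was not tested. Of the 85 nuclear genes tested, 70 have an effective length under 1000 bases, as do 2258 of all 12555 genes. Among the other 2178 genes that short, 861 fell in Tu-primed cells with a median of −0.14 and 662 in Spl-primed cells with a median of −0.09, whereas the other 10279 genes had a median of 0.05 in each. Retained-intron and nonsense-mediated decay transcripts held 7.33% ± 0.231 (SD, n = 4) of the reads of the nuclear members in parental, 8.76% ± 0.152 in Spl-primed and 9.07% ± 0.238 in Tu-primed cells, beside 4.14% ± 0.175, 5.76% ± 0.312 and 5.75% ± 0.0896 of the reads of all transcripts.

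The complexes were first compared by their summed CPM. The 36 nuclear complex I subunits summed to 1848, 1765, 1996 and 2150.0 CPM in the 4 parental libraries, to 1495, 1467, 1730.1 and 1437 in Spl-primed and to 1446, 1505, 1356 and 1447 in Tu-primed libraries. Both primed groups lay below all parental libraries and overlapped each other. Against the parental mean, complex I stood at 79.0% in Spl-primed and 74.1% in Tu-primed cells, complex II at 84.3% and 78.1%, complex III at 76.8% and 69.0%, complex IV at 81.6% and 76.2%, and complex V at 76.8% and 69.3%. For complex II the sums were 518, 519, 552 and 569 CPM in parental, 457, 445, 484 and 432 in Spl-primed and 419.6, 429, 407 and 429.9 in Tu-primed libraries. Complex III summed to 835, 791, 915 and 973 CPM in parental, 659.6, 655, 761 and 625 in Spl-primed and 611, 614, 575 and 625 in Tu-primed libraries, and complex IV in the same order to 1419, 1386, 1486 and 1588, 1159, 1142, 1382 and 1116 and 1129, 1198, 1039.9 and 1116 CPM. Complex V, the set with the highest summed TPM of the nuclear sets in parental cells (6712 ± 251), summed to 4672, 4385, 4965 and 5267 CPM in parental, 3715, 3549, 4079 and 3465 in Spl-primed and 3377, 3429.9, 3186 and 3378 in Tu-primed libraries. In every nuclear complex each library of both primed groups lay below the lowest parental library. The third Spl-primed library was the highest of the primed libraries in all 5, and the Tu-primed sums lay within or below the Spl-primed range.

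The mitochondrial sets stood lower still. Their complex I genes summed to 15637, 16098, 20219 and 29938 CPM in parental, 10017, 8738, 10783 and 9340.4 in Spl-primed and 8119, 7781, 8073 and 7494 in Tu-primed libraries, or 47.5% and 38.4% of the parental mean. Mitochondrial complex III stood at 51.6% and 43.1%, complex IV at 50.3% and 43.4% and complex V at 44.9% and 36.3% of the parental mean in Spl-primed and Tu-primed cells. No primed library reached the lowest parental library in any of these sums. All 13 genes together summed to 45212, 45112, 53019 and 76747 CPM in parental, 27068, 24293, 30186 and 25630.3 in Spl-primed and 24381, 23458, 21574 and 19964 in Tu-primed libraries.

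**Figure D2:**
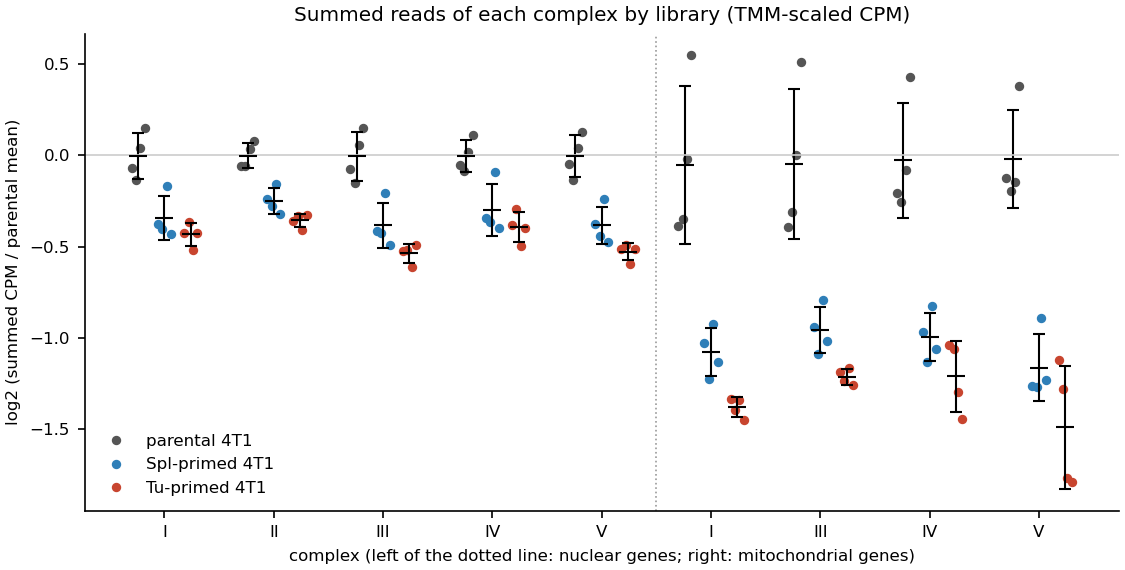
Log2 of the summed CPM of each complex over its parental mean (vertical axis), 1 point per library with the mean and SD of each group, with nuclear genes left and mitochondrial genes right of the dotted line and the groups in separate colors. On this TMM scale every primed library lies below every parental library in each set, and the parental libraries spread more in the mitochondrial sets, where the fourth reaches 76747 CPM against 45112 to 53019 in the other parental libraries; on the TPM scale the ranges of primed and parental libraries overlap in nuclear complexes I, III, IV and V, and in complex II the primed libraries lie above the parental ones.

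The share of the mitochondrial genome among these reads was lower in primed cells. Mitochondrial CPM divided by the CPM of the nuclear subunits of complexes I to V was 4.87, 5.10, 5.35 and 7.28 in the parental libraries, 3.62, 3.35, 3.58 and 3.62 in the Spl-primed and 3.49, 3.27, 3.29 and 2.85 in the Tu-primed libraries. The primed libraries all lay below the parental ones, and this ratio within a library does not depend on the scaling between libraries. The means were 5.65 ± 1.10 (SD, n = 4), 3.54 ± 0.13 and 3.23 ± 0.27. Per length, the summed TPM of the 7 mitochondrial complex I genes was 33777 ± 5749 in parental, 21505 ± 1469 in Spl-primed and 18469 ± 1304 in Tu-primed cells, while that of the 36 nuclear complex I genes was 4257 ± 163, 4414 ± 303 and 4379.7 ± 124. Over all 94 nuclear genes it was 17668 ± 765 in parental, 18573 ± 1244 in Spl-primed and 17958 ± 507 in Tu-primed cells. When TPM was rescaled with the mitochondrial genes taken out of the total, the nuclear genes summed to 22322 ± 240.2 in parental, 20975 ± 1366 in Spl-primed and 20029.5 ± 732 in Tu-primed cells. Near-identical nuclear copies of the mitochondrial genes, described below, stayed in that total.

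The mitochondrial genes lie close together on the mitochondrial genome (chrM, build GRCm38), and several share bases or have near-identical copies in the nuclear genome, so that the split of their reads is uncertain. The 3 genes with the largest shares of reads on a copy are shown here with a stretch of that copy, because a read from such a stretch matches both places. mt-Co2 and Gm28661, an unprocessed pseudogene on chromosome 1, were identical over 681 aligned bases, as were mt-Atp6 and Gm10925 over 678 bases, whereas mt-Nd3 and Gm28438 differed at 1 of 345 aligned bases, T3C, counted from the first base of mt-Nd3. Capitals mark the base that differs, and the lines without capitals are the same in gene and copy.
mt-Co2, chrM:7323-7382, plus strand: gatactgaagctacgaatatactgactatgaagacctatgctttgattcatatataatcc
Gm28661, chr1:24615196-24615255, minus strand: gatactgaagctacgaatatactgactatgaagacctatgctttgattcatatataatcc
mt-Atp6, chrM:8236-8295, plus strand: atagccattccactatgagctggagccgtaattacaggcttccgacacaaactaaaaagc
Gm10925, chr1:24614283-24614342, minus strand: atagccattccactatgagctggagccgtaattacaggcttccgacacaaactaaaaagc
mt-Nd3, chrM:9459-9518, plus strand: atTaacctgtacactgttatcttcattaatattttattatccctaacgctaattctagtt
Gm28438, chr1:24613060-24613119, minus strand: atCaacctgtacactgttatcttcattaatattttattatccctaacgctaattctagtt

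The share of reads that the deposited quantification gave to the copy changed from library to library. Of the reads on mt-Co2 and Gm28661 together, 6.84% to 75.2% were placed on the copy, which made 47.0% over all libraries. For mt-Atp6 and Gm10925 that share was 30.3% to 61.6% and 49.3% over all, and for mt-Nd3 and Gm28438 it was 62.5% to 82.9% and 74.3% over all. Copies held 8.37% of the joint reads of mt-Co1, 3.40% of those of mt-Nd4 and 2.38% of those of mt-Co3, and at most 2 reads lay on the copies found for mt-Nd2, mt-Nd4l and mt-Nd5. mt-Co2, mt-Atp6 and mt-Nd3 are therefore given without and with the reads of its copies. With the copies added, an alternative chosen after the data had been seen, the ratio between the genomes was 6.74 ± 1.54 in parental, 4.10 ± 0.18 in Spl-primed and 3.69 ± 0.22 in Tu-primed cells.

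Complex I holds 7 mitochondrial subunits, all in its membrane arm, where protons are pumped. mt-Nd1 (chrM:2751-3707), which lines the ubiquinone site, had 4850.2, 4984, 6636 and 9851 CPM in parental, 2979, 2682, 3326 and 2696 in Spl-primed and 2359, 2329, 2346 and 2180.1 in Tu-primed libraries. The 3 groups did not overlap, in the order parental, Spl-primed, Tu-primed. Its log2 fold change was −1.51 (SE 0.18, adjusted p = 9.91e-06) in Tu-primed and −1.17 (SE 0.18, adjusted p = 0.000141) in Spl-primed cells. mt-Nd2 (chrM:3914-4951) showed 3559, 3697, 4574 and 6891 CPM in parental, 2301, 2020.1, 2509 and 2079 in Spl-primed and 1846, 1781, 1839.9 and 1692 in Tu-primed libraries, and fell by 1.39 and 1.07 on the log2 scale (adjusted p = 1.11e-05 and 0.000161). Its groups were ordered without overlap in the same way, and so were those of mt-Nd5 (chrM:11742-13565), one of the antiporter-like subunits that pump protons. mt-Nd5 had 3047, 3174, 3859.7 and 5609 CPM in parental, 1989, 1726, 1804 and 1889 in Spl-primed and 1630.1, 1482, 1563 and 1537 in Tu-primed libraries, with log2 fold changes of −1.34 (SE 0.15, adjusted p = 6.58e-06) in Tu-primed and −1.08 (SE 0.15, adjusted p = 6.79e-05) in Spl-primed cells.

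mt-Nd4 (chrM:10167-11544) and mt-Nd4l (chrM:9877-10173) overlap by 7 bases and are read from 1 messenger RNA. For mt-Nd4 the values were 3442, 3538, 4429 and 6602 CPM in parental, 2349, 1985, 2672 and 2273 in Spl-primed and 1889, 1825, 1996 and 1826 in Tu-primed libraries, with log2 fold changes of −1.26 (SE 0.17, adjusted p = 2.65e-05) and −0.96 (SE 0.17, adjusted p = 0.000401). For mt-Nd4l they were 387, 455, 474 and 716 CPM, 250.2, 213, 249.8 and 250.1 CPM and 226, 218, 211 and 184 CPM, with log2 fold changes of −1.28 (SE 0.15, adjusted p = 8.72e-06) and −1.08 (SE 0.15, adjusted p = 6.61e-05). In both genes all primed libraries lay below all parental ones, and the primed groups overlapped. mt-Nd3 (chrM:9459-9806) had 337, 223, 226 and 249 CPM in parental, 119, 80.1, 166 and 134 in Spl-primed and 131, 118, 79.3 and 60.0 in Tu-primed libraries and log2 fold changes of −1.41 (SE 0.25, adjusted p = 0.000239) and −1.05 (SE 0.24, adjusted p = 0.00288). With the reads of Gm28438 it stood at 1094 ± 279 CPM (SD, n = 4) in parental, 436 ± 56.7 in Spl-primed and 365 ± 21.1 in Tu-primed cells, and its log2 fold changes were −1.58 (SE 0.15, adjusted p = 1.28e-06) and −1.33 (SE 0.14, adjusted p = 1.1e-05).

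mt-Nd6 (chrM:13552-14070), the only one of the 13 on the minus strand, went against the others. It had 14.2, 27.2, 20.2 and 19.3 CPM in parental, 30.6, 32.4, 55.0 and 19.8 in Spl-primed and 37.0, 27.6, 36.4 and 15.9 in Tu-primed libraries. The groups overlapped, and the third Spl-primed library was the highest. Its log2 fold change was 0.77 (SE 0.30, adjusted p = 0.0482) in Spl-primed cells, a call lost with DESeq2 (adjusted p = 0.0681), with RLE normalization (0.0528), with length offsets (0.0815) and when any of 9 libraries was left out, with 0.43 and an adjusted p of 0.189 without the third Spl-primed library. In Tu-primed cells it was 0.53 (SE 0.30, adjusted p = 0.145). mt-Nd6 overlaps mt-Nd5 on the other strand by 14 bases, the library kit keeps strand but the strand setting of the quantification is not given in the sources used here, and reads of the plus strand across mt-Nd6 cannot be told apart from its own if strand was not used.

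Cytochrome b, the product of mt-Cytb (chrM:14145-15288), is the mitochondrial subunit of complex III and holds its quinone sites. It had 5179, 5474, 6798 and 9699 CPM in parental, 3541, 3191, 3918 and 3354 in Spl-primed and 2975, 2875, 3027 and 2830.0 in Tu-primed libraries, and the 3 groups did not overlap. Log2 fold changes were −1.21 (SE 0.15, adjusted p = 1.82e-05) in Tu-primed and −0.96 (SE 0.15, adjusted p = 0.000223) in Spl-primed cells. No copy of at least 95% identity over at least 200 bases was found for mt-Cytb, nor for mt-Nd1, mt-Nd6 and mt-Atp8.

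Complex IV has its catalytic core in the mitochondrial genome. mt-Co1 (chrM:5328-6872), which binds the oxygen-reducing center, had 8501, 8636, 10389 and 14885 CPM in parental, 5737, 5083, 6037 and 5334 in Spl-primed and 5173, 4906, 5004 and 4429.6 in Tu-primed libraries, with log2 fold changes of −1.12 (SE 0.14, adjusted p = 2.09e-05) and −0.93 (SE 0.14, adjusted p = 0.000171). mt-Co3 (chrM:8607-9390) had 6006, 5616, 7704 and 9934 CPM in parental, 3304, 2880.3, 3376 and 2726 in Spl-primed and 2545, 2637, 2483 and 2229.8 in Tu-primed libraries, with log2 fold changes of −1.56 (SE 0.15, adjusted p = 1.85e-06) and −1.25 (SE 0.15, adjusted p = 2.25e-05). All primed libraries lay below the parental libraries in both genes, and in mt-Co3 the primed groups did not overlap either. mt-Co2 (chrM:7013-7696), the subunit that takes electrons from cytochrome c, had 3310.3, 3023, 1418 and 2940.4 CPM in parental, 1482, 1422, 2208 and 1820.0 in Spl-primed and 2278, 2311, 884 and 905 in Tu-primed libraries. Here the groups overlapped, the third parental library was low, and the log2 fold changes of −0.75 (SE 0.33, adjusted p = 0.0624) and −0.63 (SE 0.33, adjusted p = 0.127) did not pass the test.

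Adding the reads of the identical copy changed that call. Gm28661 held 1231, 1798, 4291 and 5864 CPM in parental, 1602, 1313, 1321 and 1012 in Spl-primed and 167, 296, 1516 and 1443 in Tu-primed libraries. Among the Tu-primed libraries, the pair with few reads on mt-Co2 had the most on the copy, and the third parental library, low in mt-Co2, had 75.2% of the joint reads on it. Together they came to 4542, 4821, 5708 and 8804 CPM in parental, 3084, 2734, 3529 and 2832 in Spl-primed and 2446, 2607, 2399.9 and 2348 in Tu-primed libraries. The 3 groups were then apart, the SD of the Tu-primed group went from 808 to 112 CPM, and the log2 fold changes were −1.28 (SE 0.16, adjusted p = 1.91e-05) in Tu-primed and −0.97 (SE 0.16, adjusted p = 0.000316) in Spl-primed cells. With copies added, 12 of the 13 mitochondrial genes were called lower in each comparison with parental cells, and mt-Nd6 was the remaining one.

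**Figure D3:**
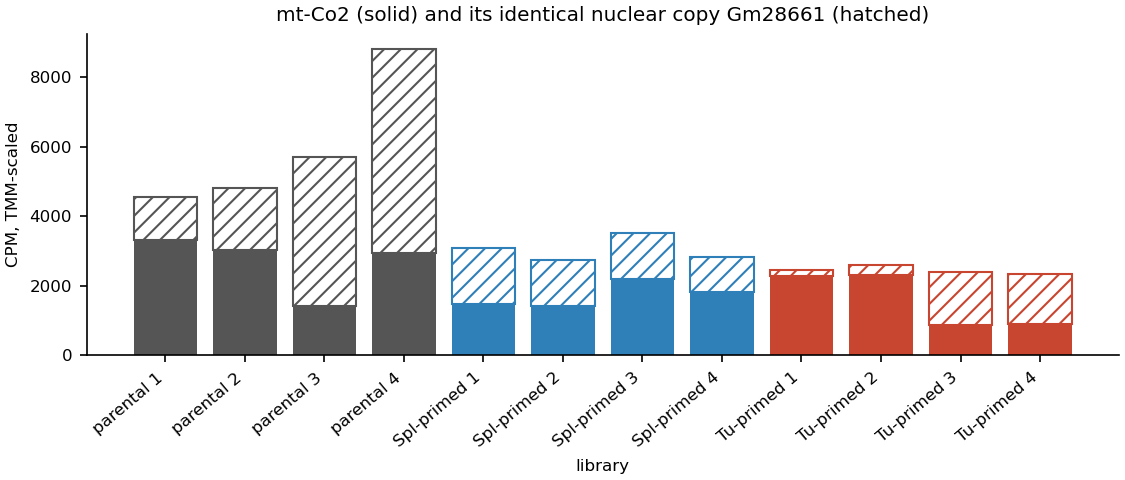
CPM on mt-Co2 and on its identical nuclear copy Gm28661 (vertical axis) in each of the 12 libraries (horizontal axis), with mt-Co2 solid and the copy hatched and stacked on it, so that the top of a bar is the sum of both. The share of the copy runs from 6.84% to 75.2%, while the summed bars stay between 2348 and 2607 CPM in Tu-primed, 2734 and 3529 in Spl-primed and 4542 and 8804 in parental libraries.

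Complex V takes 2 subunits from the mitochondrial genome, mt-Atp8 (chrM:7766-7969) and mt-Atp6 (chrM:7927-8607), which forms the proton channel. The genes share 43 bases, read in different frames, and these are shown because reads inside them belong to both genes, with the start codon of mt-Atp6 in capitals.
mt-Atp8 and mt-Atp6, chrM:7927-7969, plus strand: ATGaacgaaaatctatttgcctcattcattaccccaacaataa

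mt-Atp8 had 984, 1038, 1428 and 1803 CPM in parental, 566, 408, 421 and 406 in Spl-primed and 435, 444, 363 and 344 in Tu-primed libraries. Primed and parental libraries were apart, and the log2 fold changes, −1.73 (SE 0.18, adjusted p = 3.33e-06) in Tu-primed and −1.54 (SE 0.18, adjusted p = 1.75e-05) in Spl-primed cells, were the lowest of the 98 members tested. Its effective length in the deposited tables averaged 10.4 bases, so that its TPM is not compared with that of other genes. mt-Atp6 had 5595, 5228, 5064 and 7548 CPM in parental, 2420.4, 2571, 3442 and 2649 in Spl-primed and 2856, 2504, 1739 and 1731 in Tu-primed libraries and log2 fold changes of −1.41 (SE 0.18, adjusted p = 1.7e-05) and −1.08 (SE 0.18, adjusted p = 0.000248). With the reads of Gm10925 these were −1.58 (SE 0.16, adjusted p = 3.53e-06) and −1.23 (SE 0.16, adjusted p = 5.23e-05).

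The fourth parental library was the highest of all libraries in 10 of the 13 mitochondrial genes. Without it the median over the mitochondrial genes was −1.11 in Tu-primed and −0.86 in Spl-primed cells, and 11 genes were called lower in each, as with it. Without any other single library the medians lay between −1.43 and −1.24 and between −1.13 and −1.02.

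**Figure D4:**
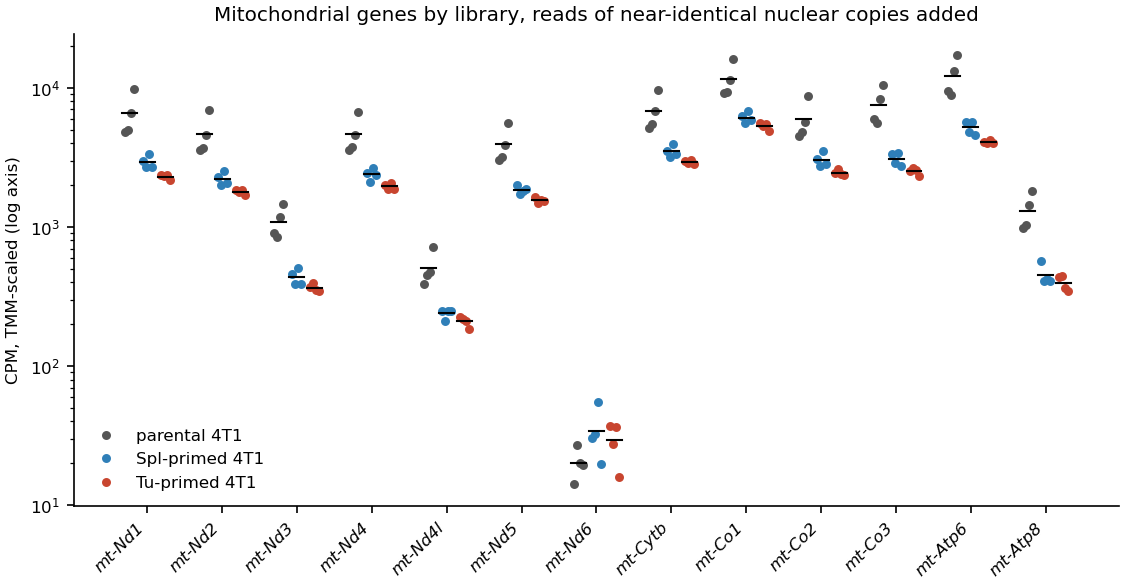
CPM of each mitochondrial gene, with the reads of near-identical copies added, in the 12 libraries (vertical axis, log scale), 1 point per library, 1 color per group and a line at each group mean. The primed libraries lie below the parental libraries in 12 of the 13 genes, and in mt-Nd6, at 14.2 to 55.0 CPM, the groups overlap. How many of all genes are separated in this way was not counted.

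The nuclear complex I subunits numbered 36, all tested, of which 30 fell in Tu-primed cells with a median of −0.53 and 29 in Spl-primed cells with a median of −0.38. The largest difference was that of Ndufb10, an accessory subunit, at −0.76 and −0.56. Ndufb9, an accessory subunit of the membrane arm, had 143, 143, 155 and 163 CPM in parental, 105, 101, 126 and 101 in Spl-primed and 109, 115, 97.0 and 104 in Tu-primed libraries, with log2 fold changes of −0.51 (SE 0.08, adjusted p = 0.000106) and −0.48 (SE 0.08, adjusted p = 0.000297). Every primed library lay below the parental ones. Ndufv1, the core subunit that binds NADH, had 89.0, 80.7, 100.4 and 107 CPM in parental, 71.0, 74.4, 78.6 and 66.3 in Spl-primed and 64.8, 67.7, 59.5 and 67.5 in Tu-primed libraries and fell as well, with log2 fold changes of −0.54 (SE 0.08, adjusted p = 9.3e-05) and −0.38 (SE 0.08, adjusted p = 0.00213). Its TPM was 76.6 ± 3.53 (SD, n = 4) in parental, 81.8 ± 3.99 in Spl-primed and 78.0 ± 4.48 in Tu-primed cells.

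Ndufs1, the largest core subunit, which carries iron-sulfur clusters, did not follow. It had 118, 118, 109 and 99.6 CPM in parental, 129, 115, 123 and 120.3 in Spl-primed and 120.1, 118, 118 and 119 in Tu-primed libraries, with overlapping groups and log2 fold changes of 0.10 (SE 0.06, adjusted p = 0.181) and 0.13 (SE 0.06, adjusted p = 0.0802). Its TPM was 57.8 ± 12.7 in parental, 91.1 ± 6.11 in Spl-primed and 92.7 ± 3.52 in Tu-primed cells, and with DESeq2 and transcript length offsets it was called higher in Tu-primed (0.22) and Spl-primed cells (0.25 on the log2 scale). Ndufab1, the mitochondrial acyl carrier protein, was at 31.7, 31.8, 30.9 and 35.3 CPM in parental, 35.1, 34.0, 41.4 and 33.8 in Spl-primed and 32.3, 34.2, 35.0 and 32.2 in Tu-primed libraries, which overlapped. Its log2 fold changes were 0.04 (SE 0.07, adjusted p = 0.617) and 0.15 (SE 0.07, adjusted p = 0.0869). A pseudogene held 33.8% of its joint reads, and with copies added its log2 fold change in Tu-primed cells was −0.21 (SE 0.07, adjusted p = 0.0135), of the opposite sign. Ndufv3 had 33.2 ± 5.03 CPM (SD, n = 4) in parental, 31.7 ± 3.10 in Spl-primed and 34.6 ± 2.26 in Tu-primed cells and was not called in either comparison, nor were Ndufa1, Ndufa7 and Ndufb4, which were picked with their values in view. Of the joint reads of Ndufb4 and its identical copy Ndufb4c, 60.4% lay on the copy, and with copies added Ndufb4 was called lower in Tu-primed cells, at −0.25 (SE 0.10, adjusted p = 0.0415).

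Ndufs4, a subunit needed for the assembly and activity of complex I, fell in each comparison although its groups overlapped, with 39.8, 39.8, 45.2 and 44.0 CPM in parental, 36.9, 33.1, 39.8 and 33.8 in Spl-primed and 36.0, 40.7, 35.1 and 35.2 in Tu-primed libraries and log2 fold changes of −0.20 (SE 0.07, adjusted p = 0.0306) and −0.23 (SE 0.07, adjusted p = 0.0174). The call in Tu-primed cells was lost without Tu-primed library 1, 3 or 4 or parental library 3 or 4 (adjusted p between 0.0688 and 0.0919), and that in Spl-primed cells without Spl-primed library 2 or 4 or parental library 3 (between 0.0554 and 0.0585). Both were lost with protein-coding transcripts only (0.249 and 0.101) and with library totals (0.922 and 0.504, edgeR in each case). Ndufa6, an accessory subunit, had 20.9, 21.4, 25.7 and 25.8 CPM in parental, 18.4, 16.2, 19.7 and 17.5 in Spl-primed and 15.9, 15.6, 13.2 and 15.2 in Tu-primed libraries. Its groups followed each other without overlap, with log2 fold changes of −0.65 (SE 0.09, adjusted p = 4.03e-05) and −0.38 (SE 0.09, adjusted p = 0.00302). The 8 Ndufaf genes, whose products help to assemble complex I and are not part of it, had a median of −0.48 in Tu-primed and −0.33 in Spl-primed cells, and 6 of the 8 were called lower in each. Ndufaf8 was lowest at −0.91 and −0.68, Ndufaf7 was not called in either comparison at 0.05 and 0.07, Ndufaf4 was called lower in Tu-primed cells only at −0.55, against −0.25 in Spl-primed cells, and Ndufaf3 was called in Spl-primed cells only, at −0.30 against −0.26. The choice of these Ndufaf genes and of Ndufb10 was made with their values in view, and the difference between the comparisons was not significant for Ndufaf4 or Ndufaf3 (Tu-primed against Spl-primed, adjusted p = 0.125 and 0.881).

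Complex II, the only complex with no mitochondrial subunit, fell least of the nuclear sets by its median, −0.32 in Tu-primed and −0.22 in Spl-primed cells, with 3 of 4 genes called lower in each. Sdhb, the iron-sulfur subunit, had 115, 113, 128 and 135 CPM in parental, 91.9, 85.5, 105 and 84.5 in Spl-primed and 79.2, 81.3, 72.5 and 82.1 in Tu-primed libraries, with no overlap between the 3 groups. Its log2 fold changes were −0.64 (SE 0.08, adjusted p = 1.52e-05) and −0.42 (SE 0.08, adjusted p = 0.000692). Sdha, the flavoprotein that oxidizes succinate, had 192, 191, 204 and 213 CPM in parental, 177, 169, 172 and 167 in Spl-primed and 160.4, 156, 156 and 163 in Tu-primed libraries, again apart, with smaller log2 fold changes of −0.33 (SE 0.05, adjusted p = 6.59e-05) and −0.22 (SE 0.05, adjusted p = 0.0021). Sdhd, a membrane anchor, had 146, 152, 155 and 152 CPM in parental, 130.0, 129, 142 and 121 in Spl-primed and 118, 126, 120.2 and 126 in Tu-primed libraries and log2 fold changes of −0.30 (SE 0.05, adjusted p = 0.000306) and −0.21 (SE 0.05, adjusted p = 0.00569). Primed and parental libraries did not overlap in Sdhd. Sdhc, the other anchor, had 65.1, 63.1, 65.3 and 68.0 CPM in parental, 58.0, 61.0, 65.3 and 59.0 in Spl-primed and 61.7, 65.3, 58.6 and 58.7 in Tu-primed libraries, which overlapped, and its log2 fold changes of −0.10 (SE 0.05, adjusted p = 0.123) and −0.10 (SE 0.05, adjusted p = 0.118) did not pass the test. The call of Sdha in Spl-primed cells was lost with DESeq2 and transcript length offsets (−0.15, adjusted p = 0.1) and with library totals (−0.052, 0.333), and Sdhd was called in neither comparison with library totals (adjusted p = 0.0966 and 0.594). On the TPM scale Sdha and Sdhd had the opposite sign, 0.31 and 0.16 in Tu-primed and 0.28 and 0.19 in Spl-primed cells.

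All 8 nuclear complex III subunits were called lower in both comparisons, with medians of −0.48 in Tu-primed and −0.37 in Spl-primed cells. Uqcrc1, a core subunit of the matrix side, had 273, 245, 296 and 332 CPM in parental, 201, 211, 244 and 197 in Spl-primed and 182, 174, 166 and 195 in Tu-primed libraries. The 3 groups did not overlap, and the log2 fold changes were −0.67 (SE 0.09, adjusted p = 3.36e-05) and −0.43 (SE 0.09, adjusted p = 0.00184). Uqcrc2, the second core subunit, had log2 fold changes of −0.45 (SE 0.06, adjusted p = 4.05e-05) and −0.35 (SE 0.06, adjusted p = 0.000533), and Uqcrh, the hinge protein at the cytochrome c1 face, of −0.51 (SE 0.09, adjusted p = 0.000206) and −0.42 (SE 0.09, adjusted p = 0.00143). Uqcrfs1, the Rieske iron-sulfur protein, had 79.0, 77.6, 86.4 and 87.4 CPM in parental, 68.0, 62.6, 74.1 and 64.5 in Spl-primed and 65.6, 65.7, 64.4 and 64.5 in Tu-primed libraries, with primed below parental in each case and log2 fold changes of −0.34 (SE 0.06, adjusted p = 0.000223) and −0.30 (SE 0.06, adjusted p = 0.00113). With library totals its call in Spl-primed cells was lost (−0.12, adjusted p = 0.0838).

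The 20 nuclear genes of complex IV include isoforms of particular tissues or states, and 8 of the 20 did not pass the filter on low counts. Cox4i1, Cox6a1, Cox6b1, Cox7a2 and Cox8a, the isoforms used by most cells, were expressed, while the alternative isoforms had few counts or none. Over all 12 libraries Cox4i2, known from lung, had 10 counts, Cox7a1, known from muscle, had 23, Cox7b2 had 2, and Cox6a2 and Cox6b2, known from muscle and testis, had 1 each. Cox8b, Cox8c and Ndufa4l2 had 0 counts, which allows up to 3. Cox4i1 had 253, 239, 277 and 303 CPM in parental, 203, 219, 251 and 201 in Spl-primed and 191, 205, 180.5 and 212 in Tu-primed libraries, with log2 fold changes of −0.44 (SE 0.09, adjusted p = 0.000605) and −0.30 (SE 0.09, adjusted p = 0.012). Its call in Spl-primed cells was lost with protein-coding transcripts only (−0.25, adjusted p = 0.0593) and with library totals (−0.12, 0.235). Cox8a moved most, with 112, 98.6, 116 and 136 CPM in parental, 75.3, 69.9, 95.9 and 67.4 in Spl-primed and 69.3, 69.2, 63.8 and 67.8 in Tu-primed libraries and log2 fold changes of −0.78 (SE 0.11, adjusted p = 4.1e-05) and −0.59 (SE 0.11, adjusted p = 0.000642). Its primed libraries all lay below the parental ones, whereas the Spl-primed and parental libraries of Cox4i1 overlapped. Of the 12 genes tested, 9 fell in each comparison, with medians of −0.43 and −0.33.

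Among the other complex IV subunits, Cox6a1 had log2 fold changes of −0.57 (SE 0.09, adjusted p = 0.000162) and −0.35 (SE 0.09, adjusted p = 0.00684), Cox6b1 of −0.37 (SE 0.08, adjusted p = 0.00107) and −0.30 (SE 0.08, adjusted p = 0.00592), and Cox7a2 of −0.40 (SE 0.07, adjusted p = 0.000357) and −0.34 (SE 0.07, adjusted p = 0.00171). With protein-coding transcripts only, the call of Cox7a2 in Tu-primed cells was lost (−0.27, adjusted p = 0.11). With library totals Cox6a1 (adjusted p = 0.109), Cox6b1 (0.185) and Cox7a2 (0.0596) lost their calls in Spl-primed cells, as did Cox6b1 in Tu-primed cells (0.0562). In Cox6a1 and Cox6b1 the Spl-primed and parental libraries overlapped, and in Cox7a2 they did not. Cox7a2l encodes a factor known for a role in joining complexes III and IV, which was not examined in these cells. Cox7a2l had 182, 179.9, 196 and 216 CPM in parental, 139, 134, 154 and 137 in Spl-primed and 137, 144, 131 and 139.9 in Tu-primed libraries, below parental throughout, with log2 fold changes of −0.49 (SE 0.07, adjusted p = 3.04e-05) and −0.46 (SE 0.07, adjusted p = 0.00011). Cox6c, a small subunit of complex IV, had 137, 139.9, 130.2 and 122 CPM in parental, 129, 123, 152 and 128 in Spl-primed and 133, 146, 126 and 122 in Tu-primed libraries, with log2 fold changes of −0.01 (SE 0.08, adjusted p = 0.917) and 0.01 (SE 0.08, adjusted p = 0.964), and its TPM was 519 ± 85.8, 661 ± 42.5 and 673 ± 49.3. Ndufa4, which is named for complex I and is counted here with complex IV, had 137 ± 6.61 CPM (SD, n = 4) in parental, 125 ± 13.5 in Spl-primed and 121 ± 12.4 in Tu-primed cells, with log2 fold changes of −0.18 (SE 0.08, adjusted p = 0.0734) and −0.13 (SE 0.08, adjusted p = 0.223). Ndufa4 was called lower in Tu-primed cells with DESeq2 (adjusted p = 0.0379). The groups overlapped in Cox6c and Ndufa4, and Cox7b, the third complex IV gene that was not called, had −0.15 and −0.07. With Ndufa4 counted by its symbol, 30 of 37 complex I genes and 9 of 11 complex IV genes fell in Tu-primed cells.

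In complex V, 16 of 17 nuclear genes tested were called lower in each comparison, with medians of −0.44 in Tu-primed and −0.37 in Spl-primed cells. Atp5b, the catalytic beta subunit, had 1736, 1606, 1803 and 1898 CPM in parental, 1409, 1345, 1488 and 1291 in Spl-primed and 1241, 1225, 1168 and 1250.0 in Tu-primed libraries. Its partner in the catalytic ring, Atp5a1, had 941, 868, 1026 and 1041 CPM in parental, 722, 696, 751 and 673 in Spl-primed and 638, 639, 608 and 657 in Tu-primed libraries. In both genes the 3 groups followed each other without overlap. Log2 fold changes were −0.53 (SE 0.06, adjusted p = 1.05e-05) and −0.35 (SE 0.06, adjusted p = 0.000506) for Atp5b, −0.61 (SE 0.06, adjusted p = 3.42e-06) and −0.45 (SE 0.06, adjusted p = 8.11e-05) for Atp5a1, and −0.44 (SE 0.06, adjusted p = 4.94e-05) and −0.31 (SE 0.06, adjusted p = 0.00107) for Atp5c1, the gamma subunit of the central stalk. On the TPM scale Atp5b was 1067 ± 71.3 in parental, 1211 ± 130.3 in Spl-primed and 1059 ± 33.5 in Tu-primed cells. Atp5d, the delta subunit, picked with its values in view, lay furthest below 0 of the nuclear subunits at −0.89 and −0.70. Atp5s, a low-count gene for a coupling factor, was the one not called, at 2.89 ± 0.354, 3.51 ± 0.767 and 3.35 ± 0.372 CPM (SD, n = 4) in parental, Spl-primed and Tu-primed cells. A second gene identifier under the symbol Atp5o had 7 counts in all and was not tested, while the first fell by 0.66 and 0.48 on the log2 scale.

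Atp5g1, Atp5g2 and Atp5g3 encode the same mature c subunit of the membrane ring with different import signals, and all 3 fell. Atp5g3 had 238, 215, 242 and 263 CPM in parental, 176, 163, 207 and 161 in Spl-primed and 162, 160.5, 146 and 142 in Tu-primed libraries. Atp5g1 had 97.8, 91.3, 101 and 109 CPM in parental, 67.4, 70.2, 91.8 and 60.4 in Spl-primed and 57.8, 63.8, 50.6 and 63.2 in Tu-primed libraries. For Atp5g2 the values were 92.2, 104, 82.4 and 98.3 CPM in parental, 65.4, 65.8, 78.8 and 74.5 in Spl-primed and 72.9, 75.0, 66.2 and 69.0 in Tu-primed libraries. Of the 3 genes, only in Atp5g1 did a Spl-primed library, the third, reach into the parental range when reads of copies were left out. Log2 fold changes were −0.65 (SE 0.08, adjusted p = 2.28e-05) and −0.44 (SE 0.08, adjusted p = 0.000835) for Atp5g3, −0.76 (SE 0.11, adjusted p = 6.21e-05) and −0.46 (SE 0.11, adjusted p = 0.00379) for Atp5g1, and −0.41 (SE 0.08, adjusted p = 0.000537) and −0.40 (SE 0.08, adjusted p = 0.000958) for Atp5g2. Per length, in parental cells, Atp5g3 was at 507 ± 29.0 TPM, Atp5g1 at 255 ± 13.0 and Atp5g2 at 195 ± 32.6, a descending order in which the gaps exceeded the sum of the SDs of the neighbours. These TPM leave out the reads of copies, and the order of Atp5g1 and Atp5g2 per length was not examined with them. In CPM with copies added, Atp5g2 was at 128 ± 6.83 and Atp5g1 at 118 ± 9.90 in parental cells. Pseudogenes held 15.3% of the joint reads of Atp5g1 and 28.9% of those of Atp5g2. With these reads added, the third Spl-primed library reached into the parental range in Atp5g2, at 124.6 CPM against a lowest parental 119.9. It no longer did so in Atp5g1, at 106.1 against 107.8 CPM. Log2 fold changes in Tu-primed and Spl-primed cells were then −0.77 and −0.47 for Atp5g1 and −0.42 and −0.25 for Atp5g2, all called lower.

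**Figure D5:**
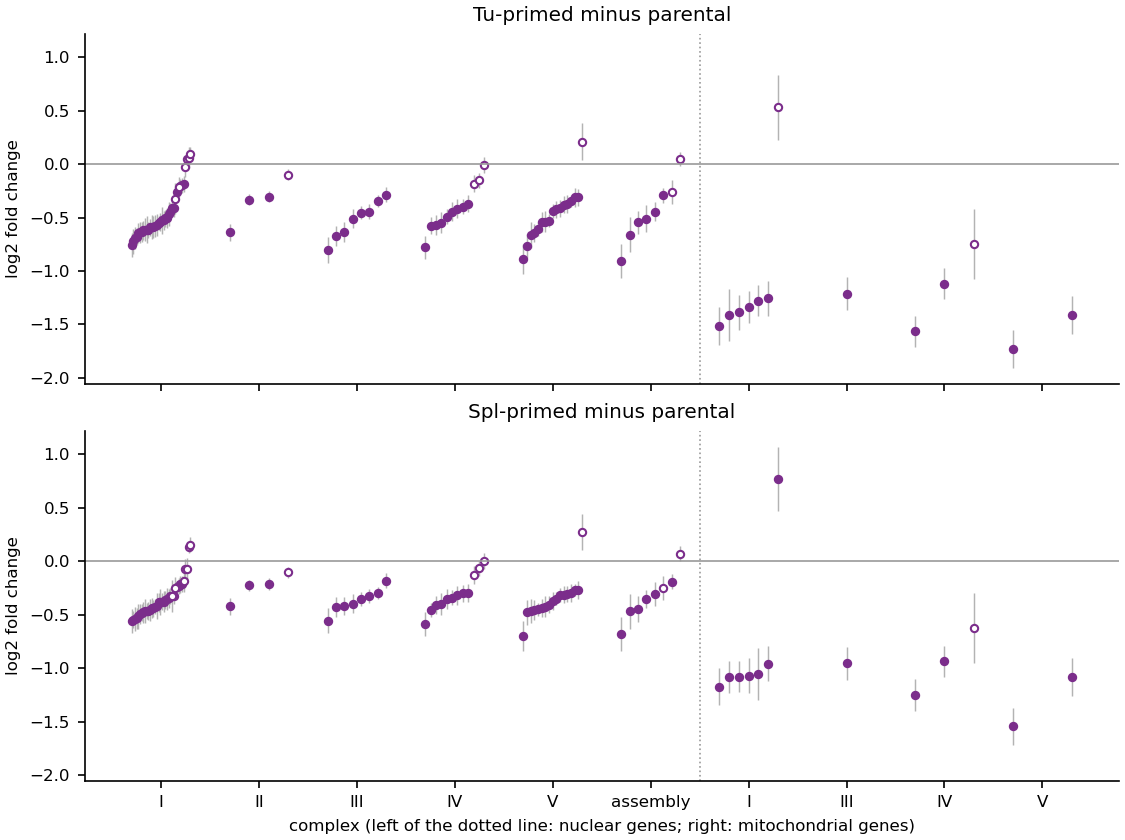
Log2 fold change against parental 4T1 (vertical axis, TMM scale) of each of the 98 genes tested, by complex (horizontal axis), with Tu-primed cells above and Spl-primed cells below; filled points passed the test, open points did not, and vertical lines are standard errors. Medians of the nuclear complexes lie between −0.53 and −0.32 in Tu-primed and between −0.38 and −0.22 in Spl-primed cells, and those of the mitochondrial sets between −1.57 and −1.12 and between −1.31 and −0.93; on the TPM scale the nuclear medians over all complexes are −0.01 and 0.05.

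Over the nuclear genes, 70 were called lower in both comparisons, Ndufs7 and Ndufaf4 in Tu-primed cells only and Ndufaf3 in Spl-primed cells only, and 12 in neither. Ndufs7 was also called lower in Spl-primed cells with DESeq2 (−0.28, adjusted p = 0.03), RLE scaling (0.0413) or no filter on low counts (0.04), and without Spl-primed library 3 (0.00342) or parental library 2 (0.0182). Leaving out the third Spl-primed library, which was the highest of the Spl-primed libraries in the sums, raised the count in Spl-primed cells from 71 to 77 and took the median from −0.35 to −0.45, and the range over the 12 libraries left out in turn was 62 to 77.

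As these genes moved together, their promoters were searched for shared motifs. RefSeq promoter windows (250 bases before to 50 bases after the start, GRCm38.p6) were matched for 74 of the 94 nuclear genes, in 79 windows, and searched on both strands for 3 motifs known from promoters of nuclear genes for mitochondrial proteins. GCATGCG, the core of the site of nuclear respiratory factor 1, was in 16.5% of the 79 windows and in 3.58% of all 32851 windows, CCGGAAG, an ETS factor site, in 22.8% and 8.86%, and AAGATGG, the core of the YY1 site, in 13.9% and 6.34%. At least 1 of the 3 was in 43% of the 79 windows, those of 34 genes, and in 17.3% of all windows. The windows of all genes were not limited to genes that passed the filter on low counts. The 5 stretches below, 1 per complex, were taken to show such matches upstream of genes that fell, with the motif in capitals, and they do not show that a factor bound there. They were chosen by the size of the fall in Tu-primed cells, among genes with a match upstream of the gene. The match in Cox6a1 is a GCATGCG read on both strands, which overlaps itself.
Ndufa6 (complex I), chr15:82354345-82354404, minus strand: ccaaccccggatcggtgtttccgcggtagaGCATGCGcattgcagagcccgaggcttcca
Sdhd (complex II), chr9:50603866-50603925, minus strand: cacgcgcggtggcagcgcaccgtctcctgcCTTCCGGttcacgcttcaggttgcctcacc
Uqcr11 (complex III), chr10:80406858-80406917, minus strand: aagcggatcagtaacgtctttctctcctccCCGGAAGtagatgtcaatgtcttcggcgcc
Cox6a1 (complex IV), chr5:115349090-115349149, minus strand: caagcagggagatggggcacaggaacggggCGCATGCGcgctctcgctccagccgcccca
Atp5e (complex V), chr2:174464174-174464233, minus strand: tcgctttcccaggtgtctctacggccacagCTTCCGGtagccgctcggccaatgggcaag

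Of the genes shown, Uqcr11, a small subunit of complex III, had log2 fold changes of −0.64 (SE 0.09, adjusted p = 5.52e-05) and −0.40 (SE 0.09, adjusted p = 0.00295), and Atp5e, the epsilon subunit of ATP synthase, of −0.54 (SE 0.10, adjusted p = 0.000395) and −0.43 (SE 0.10, adjusted p = 0.00304) in Tu-primed and Spl-primed cells. Both were picked for their promoters with their values in view. Genes without a match also fell, such as Atp5b and Uqcrfs1, and the part of these motifs in the differences was not tested.

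Between Tu-primed and Spl-primed cells no gene of oxidative phosphorylation was called, 0 of 98 in either direction with edgeR, where 2.97% of all genes were called lower and 4.66% higher in Tu-primed cells. At an unadjusted p under 0.05, 13 of the 98 were lower, 12 nuclear and 1 mitochondrial, as were 12.4% of all genes. At that threshold 0 of the 98 were higher, as against 1284 of all 12555 genes. DESeq2 called 1 nuclear member lower. The values leaned one way, with Tu-primed below Spl-primed in 76 of 85 nuclear and 13 of 13 mitochondrial genes and medians of −0.11 and −0.26, beside −0.01 over all genes, of which 6757 of 12555 were below 0. The nuclear median rested largely on the third Spl-primed library, without which it was −0.03, while the mitochondrial median was −0.19. Ndufs7, a core subunit that carries an iron-sulfur cluster, had the smallest p, with 33.6, 28.5, 35.2 and 36.7 CPM in parental, 27.1, 26.4, 34.3 and 24.7 in Spl-primed and 22.4, 22.4, 19.2 and 23.6 in Tu-primed libraries. Every Tu-primed library lay below every Spl-primed one, and the log2 fold change between them was −0.36 (SE 0.11, adjusted p = 0.0519) with edgeR and −0.35 (adjusted p = 0.0255) with DESeq2. Atp5b and Ndufa6 followed at −0.18 (SE 0.06, adjusted p = 0.0965) and −0.26 (SE 0.09, adjusted p = 0.0971). Among the mitochondrial genes mt-Co3 had −0.31 (SE 0.14, adjusted p = 0.219), and when the 8 primed libraries were fitted without the parental ones, 5 mitochondrial genes were called lower in Tu-primed cells, namely mt-Nd1, mt-Nd2, mt-Nd5, mt-Cytb and mt-Co3, with log2 fold changes between −0.33 and −0.24. Without the fourth parental library, 2 of them, mt-Nd1 and mt-Nd2, were called in the fit of all groups (adjusted p = 0.0467 and 0.0384). The shares of all genes called with DESeq2, with the 8 primed libraries alone and without the fourth parental library are not given here. Whether these counts exceed such shares therefore cannot be said. Of the nuclear genes with a higher value in Tu-primed cells, Ndufv3 had the smallest p at 0.13 (SE 0.10, adjusted p = 0.483).

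Genes that work beside the complexes were examined in lists by function. Cyc1, the cytochrome c1 subunit of complex III, whose symbol the rule does not cover, had log2 fold changes of −0.55 (SE 0.10, adjusted p = 0.000312) in Tu-primed and −0.34 (SE 0.10, adjusted p = 0.011) in Spl-primed cells, and Cycs, cytochrome c itself, of −0.57 (SE 0.08, adjusted p = 5.04e-05) and −0.47 (SE 0.08, adjusted p = 0.000413). Of 34 assembly factors outside the rule, 15 fell and 5 rose in Tu-primed cells with a median of −0.12, and 6 fell and 4 rose in Spl-primed cells with a median of −0.09. The share called lower was above the 28% of all genes in Tu-primed cells and below the 22.5% in Spl-primed cells, and the shares called higher were below the 31.2% and 25.7% of all genes. Cox10, which makes heme for complex IV, had −0.83 and −0.64, Ecsit, a complex I assembly factor, −0.65 and −0.48, and Tmem126b, another complex I assembly factor, 0.39 and 0.49, all 3 called in each comparison.

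The 18 genes that copy, read and process the mitochondrial genome gave 7 lower and 3 higher in Tu-primed cells with a median of −0.07, and 4 lower and 5 higher in Spl-primed cells with a median of 0.07. In Spl-primed cells both shares were near those of all genes (22.5% lower and 25.7% higher), and in Tu-primed cells more were called lower and fewer higher than the 28% and 31.2% of all genes. Lrpprc, which binds and stabilizes mitochondrial messenger RNA, had log2 fold changes of −0.56 (SE 0.06, adjusted p = 3.33e-06) and −0.43 (SE 0.06, adjusted p = 5.44e-05). Elac2, which trims mitochondrial transfer RNA, had −0.50 (SE 0.07, adjusted p = 4.01e-05) and −0.28 (SE 0.07, adjusted p = 0.00424), and Pnpt1, the mitochondrial polynucleotide phosphorylase that degrades RNA, had 0.59 (SE 0.08, adjusted p = 4.86e-05) and 0.46 (SE 0.08, adjusted p = 0.00059). All 3 were called in each comparison. Twnk, the mitochondrial DNA helicase, was the 1 gene of this list called between the primed groups, lower in Tu-primed cells at −0.27 (SE 0.05, adjusted p = 0.00267), and was named for that call.

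Of 11 nuclear regulators, 3 fell and 2 rose in Tu-primed cells and 1 fell and 2 rose in Spl-primed cells, with medians of −0.06 and −0.04. The shares called in each direction were near or below those of all genes. Chchd2, a mitochondrial protein that also acts in the nucleus, had −0.69 (SE 0.12, adjusted p = 0.000329) and −0.58 (SE 0.12, adjusted p = 0.00183). Gabpa, a factor of the ETS family known to act on promoters of such genes, had 0.33 (SE 0.08, adjusted p = 0.00301) and 0.24 (SE 0.08, adjusted p = 0.0227). Hif1a, the oxygen-regulated transcription factor, had 0.42 (SE 0.10, adjusted p = 0.00171) and −0.22 (SE 0.10, adjusted p = 0.0714), and its log2 difference between Tu-primed and Spl-primed cells was 0.64 (SE 0.10, adjusted p = 0.000753). Pprc1, a coactivator related to PGC-1, was the other regulator called between the primed groups, at −0.23 (SE 0.05, adjusted p = 0.00948), and was named for that call.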

How the data were processed

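RNA of parental, Tu-primed and Spl-primed 4T1 cells was measured in 12 libraries of a strand-keeping kit, 4 per group by their labels. The authors trimmed reads with Trimmomatic (0.39) and quantified transcripts with Salmon (1.4.0) on GRCm38, and the deposited tables give estimated counts (NumReads), TPM and effective length per transcript. The annotation release and strand setting are not given in the sources used here. Estimated counts were summed per gene with GENCODE M21 and rounded to whole numbers. One edgeR (4.0.16) quasi-likelihood fit over all 12 libraries, with TMM scaling and the filterByExpr filter, gave the 3 comparisons (R 4.3.3), with p-values adjusted by Benjamini-Hochberg over 12555 genes and called at 0.05. CPM are on TMM-scaled library sizes, and the deposited TPM were tested with limma (3.58.1) on log2(TPM + 0.5). Scripts were tested on simulated data. Ndufa4 and Ndufa4l2 were counted with complex IV and Ndufaf genes apart. Near-identical copies were found with BLAST (2.17.0; at least 95% identity over at least 200 bases and 80% of the copy). At 24566183 to 31637755 reads per library, depth limits the precision of genes with few counts.

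The members and lists were chosen with earlier results of these data known. Named genes are all mitochondrial members, the 4 Sdh genes, the 3 nuclear members with the highest mean CPM in complexes I, III, IV and V, the 3 members with the smallest p in each direction and comparison, members called higher, isoform pairs, and 6 core subunits (Ndufs1, Ndufv1, Uqcrfs1, Uqcrc1, Atp5a1, Atp5b), with up to 3 genes of the smallest p per list. One gene that this rule names is not reported here. Alternatives were DESeq2 (1.42.0), RLE scaling, other filters, only the 8 libraries compared, a replicate block, transcript length offsets, protein-coding transcripts only, nuclear genes only in the library size, complexes by symbol, and each library left out. Adding the reads of copies, library totals without TMM factors, and TPM were added after the data had been seen.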

Additional observations from a re-analysis of the deposited data

Results flagged for a closer look

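Of 177 sets of 4 libraries examined (each named gene and each complex sum in each group), 10 held 1 library whose gap to the nearest other was a larger share of the group's range than the critical value of Dixon's test for 4 values allows, and chance gives about 1 in 20. The third Spl-primed library was above the rest of its group in Cox7a2 (77.1 CPM, others 66.4 to 68.2), Ndufab1 (41.4, others 33.8 to 35.1), Ndufb9 (126, others 101 to 105), the nuclear complex IV sum (1382, others 1116 to 1159) and the mitochondrial complex V sum (3864, others 2979 to 3056). The first Spl-primed library was high in mt-Atp8 (566 CPM, others 406 to 421) and the second low in mt-Nd4l (213, others 249.8 to 250.2). Among Tu-primed libraries the second was high in Ndufs4 (40.7 CPM, others 35.1 to 36.0) and the fourth low in mt-Nd1 (2180.1, others 2329 to 2359). The fourth parental library was high in the mitochondrial complex V sum (9351 CPM, others 6266 to 6579).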

How the results depend on the processing

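Counts of nuclear genes called lower in Tu-primed cells stayed within 1.5 times of 72 in all settings but TPM, where 13 were called. In Spl-primed cells the count went from 71 to 37 with library totals and to 3 on TPM. Each library left out in turn gave 69 to 77 in Tu-primed and 62 to 77 in Spl-primed cells. Nuclear genes called higher in Tu-primed cells went from 0 to 1 with transcript length offsets, 1 with protein-coding transcripts, 4 with library totals and 17 on TPM, and in Spl-primed cells from 0 to 1 with at least 10 counts in every library, 1 with length offsets, 2 with protein-coding transcripts, 4 with library totals, 17 on TPM and 0 to 1 when a library was left out. Mitochondrial genes called lower stayed at 11 or 12 of 13 against parental cells, and those called higher went from 0 to 1 on TPM and 0 to 1 with a library left out in Tu-primed cells, and from 1 to 0 with DESeq2, RLE and length offsets and to 0 to 1 with a library left out in Spl-primed cells. Between the primed groups, nuclear genes called lower went from 0 to 1 with DESeq2, with at least 10 counts in every library and with length offsets, and to 0 to 1 with a library left out, and mitochondrial genes from 0 to 5 with only the 8 libraries compared and to 0 to 2 with a library left out. Single genes of the opposite sign were, on TPM in Tu-primed cells, Atp5c1 0.030, Atp5g2 0.057, Cox4i1 0.037, Cox6b1 0.10, Cox6c 0.39, Cox7a2 0.050, Ndufa4 0.30, Ndufs4 0.27, Ndufv1 0.024, Sdha 0.31, Sdhc 0.41, Sdhd 0.16, Uqcrc2 0.056 and Uqcrfs1 0.12, and in Spl-primed cells Atp5a1 0.012, Atp5b 0.18, Atp5c1 0.090, Atp5g2 0.0011, Cox4i1 0.11, Cox6a1 0.048, Cox6b1 0.18, Cox7a2 0.11, Ndufa4 0.30, Ndufa6 0.11, Ndufs4 0.17, Ndufv1 0.094, Ndufv3 0.27, Sdha 0.28, Sdhd 0.19, Uqcrc2 0.060 and Uqcrfs1 0.10, and with the reads of copies added Ndufab1 −0.21 in Tu-primed cells. TPM uses another scale and length, as described with the medians, and which of these causes each change was not tested. Deviations of same-numbered libraries of different groups were weakly correlated (−0.164 to 0.148), and those of Tu-primed and parental libraries were all positive (0.0839 to 0.148). With so few libraries per group this cannot show whether the numbers mark pairs or shared batches. With a replicate block the nuclear genes called lower were 72 in Tu-primed, 68 in Spl-primed and 0 between the primed groups. The share of all genes called is given for the main fit alone, so the counts of the other settings cannot be set against it. Genes under a few counts, such as the tissue isoforms of complex IV, are limited by depth.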
